A study of Homo sapiens with 4 samples.

Results

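This account follows 8 genes that carry carbon from acetyl-CoA to stored fat: ACSS2, ACLY, ACACA, FASN, SCD, FADS1, ELOVL5 and DGAT2, out of 14884 genes with a name on the arrays. A gene was taken by its symbol in the platform annotation. Where it had more than 1 probe set, the one with the highest mean over the 4 arrays was used. Only probe sets with a single symbol were used, here and for the lists and markers below. A gene with such a probe set is called measured, and a gene without one may still be on the arrays. All 8 were found, 7 with 1 such probe set and SCD with 2. The 8 were selected on earlier results of these arrays, with their rGAL1 minus Ctrl differences known, and the probe set on its mean level, so those differences are given as a description and were not tested for these genes. RNA came from RWP-1, an established human line of pancreatic cancer cells, kept either with rGAL1 or without treatment (Ctrl), on 2 arrays each. The name rGAL1 is read here as recombinant galectin-1, a galactose-binding lectin that cells secrete; its dose, duration and vehicle were not given in the sources used here, nor is it known whether the arrays of a group hold separate cultures. The array rGAL1 2 carries a treatment label that reads as control, against its title and source name, so differences of the genes named by the lists and of the 8 are given with and without it.

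Cells make fatty acids in the cytosol from acetyl-CoA, which ACLY cleaves from citrate and ACSS2 makes from acetate. ACACA carboxylates acetyl-CoA to malonyl-CoA, FASN condenses malonyl-CoA units into palmitate, desaturases such as SCD and FADS1 add double bonds, elongases such as ELOVL5 lengthen the chains, and DGAT2 attaches the last acyl group of a triglyceride. Most of these genes are known targets of the SREBP transcription factors, which are held back in the endoplasmic reticulum when sterols are plentiful, and many pancreatic tumours run the pathway at a high rate.

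Every value below is a log2 expression value of a probe set after RMA, so a difference of 1 is a doubling, and levels of different probe sets are not set against each other because probes differ in how they bind. All 8 genes lay above 4.70, the median over the table of probe-set means, on each of the 4 arrays. A mean above 4.70 was found for 10684 of the 14884 named genes. The arrays were on a common scale, with medians from 4.69 to 4.72. Over all probe sets, the difference between the 2 arrays of a group had an SD of 0.285 for rGAL1 and 0.299 for Ctrl. For arrays of different groups it ran from 0.275 to 0.303, and was smallest for rGAL1 2 against Ctrl 1. Arrays of a group were thus no more alike than arrays of different groups. What this says of the label of rGAL1 2 was not tested. Of the measured ductal markers, 6 of 6 (KRT7, KRT8, KRT18, KRT19, EPCAM and SOX9) were above 4.70, a level that most named genes passed. This count therefore says little of the cell type. Their list means were 9.08 and 9.15 on the rGAL1 arrays against 9.18 and 9.20 on the Ctrl arrays. In 3 of the 6 the rGAL1 arrays lay below the Ctrl arrays, against 17.0% of named genes. These were KRT7 (-0.38, SE 0.17), KRT8 (-0.098, SE 0.11) and KRT18 (-0.047, SE 0.099). EPCAM lay above (0.089), as did 20.2% of named genes, and KRT19 (0.022) and SOX9 (-0.053) overlapped. What these differences say of the cells was not tested. Adipocyte and hepatocyte markers, from cell types rich in these enzymes, averaged 4.63 and 4.65 with rGAL1 against 4.61 and 4.50 in Ctrl over 4 genes, of which PLIN1 and APOA1 were above 4.70. Of the others, 1 of 2 acinar, 2 of 3 endocrine, 1 of 1 leukocyte, 0 of 2 fibroblast and 1 of 3 endothelial markers were above it, and the list means were at most 5.09. Their part in the results was not tested. List means pool different probe sets, so they are compared between arrays and not between lists.

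The genes of acetyl-CoA supply (ACSS2 and ACLY), synthesis (FASN) and desaturation (SCD and FADS1) had both rGAL1 arrays below both Ctrl arrays, 5 of 8 genes, where 17.0% of all named genes were separated in this way. ACACA (carboxylation), ELOVL5 (elongation) and DGAT2 (esterification) overlapped between the groups, and ACACA had a slightly lower mean. With 1 or 2 genes a step, differences between steps were not tested. The mean was lower with rGAL1 in 6 of 8 genes, against 48.3% of named genes, and the median difference of the 8 was -0.20, against 0.0056 over all named genes. As the differences were known when the genes were chosen, nothing is read from these counts. In the test over the whole table, 0 of 53617 probe sets (0%) passed an adjusted p of 0.05 (limma, smallest adjusted p = 0.919), and 2807 of them (5.24%) had an unadjusted p under 0.05.

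**Figure D1:**
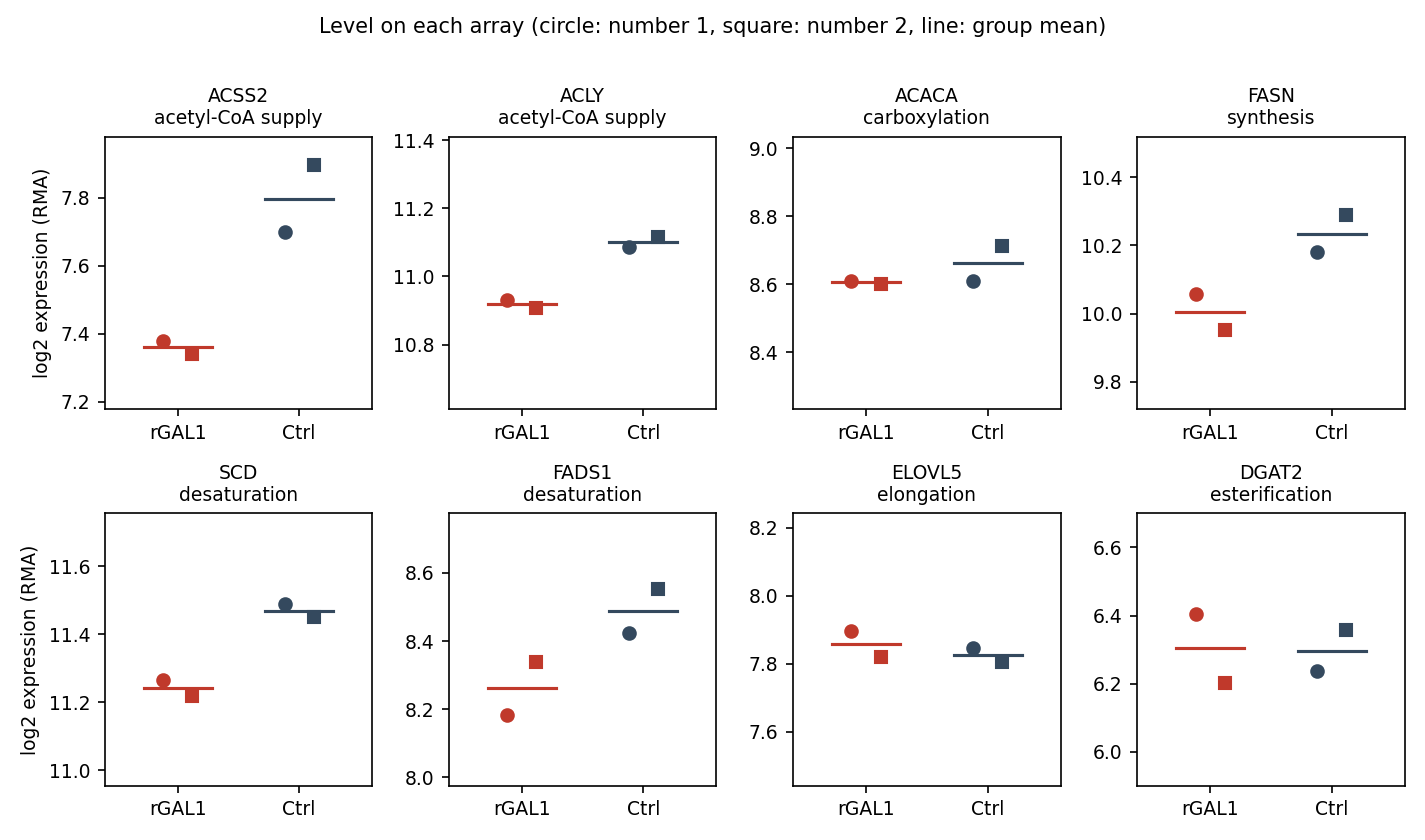
Level of each of the 8 genes on each array, in log2 RMA units, with rGAL1 left and Ctrl right (circle, array numbered 1; square, array numbered 2; line, group mean). Each panel spans the same number of log2 units around the gene's mean. The groups stand apart for ACSS2, ACLY, FASN, SCD and FADS1, and overlap for ACACA, ELOVL5 and DGAT2.

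The stretch of DNA around the transcription start is shown for 4 of the genes, because this is where factors of the lipogenic programme are known to bind: ACSS2, which differed most, SCD and FADS1, which differed by the same amount, and ELOVL5, which did not separate. Each window runs from 250 bases before the annotated start to 50 after it (RefSeq, GRCh38.p14). Capitals mark matches on either strand to a sterol regulatory element (TCACNCCAC), an NF-Y box (CCAAT), a GC box (GGGCGG) or an E-box (CACGTG), none of which overlap another in these 4 windows. The windows are chr20:34876362-34876661 on the plus strand for ACSS2 (the downstream of 2 windows in the table), chr10:100346983-100347282 on the plus strand for SCD, chr11:61816954-61817253 on the minus strand for FADS1 and chr6:53348901-53349200 on the minus strand for ELOVL5.
ACSS2: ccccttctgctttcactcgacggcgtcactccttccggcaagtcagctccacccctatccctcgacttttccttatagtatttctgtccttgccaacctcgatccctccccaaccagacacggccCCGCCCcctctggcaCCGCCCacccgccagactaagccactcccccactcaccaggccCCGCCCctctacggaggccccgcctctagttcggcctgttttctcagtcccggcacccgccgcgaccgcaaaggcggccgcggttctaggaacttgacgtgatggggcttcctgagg
SCD: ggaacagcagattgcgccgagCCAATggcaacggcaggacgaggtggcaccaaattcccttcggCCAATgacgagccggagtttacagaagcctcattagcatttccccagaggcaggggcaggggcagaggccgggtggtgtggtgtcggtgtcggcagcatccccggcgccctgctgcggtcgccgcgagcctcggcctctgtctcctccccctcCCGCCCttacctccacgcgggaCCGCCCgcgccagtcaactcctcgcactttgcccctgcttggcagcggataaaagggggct
FADS1: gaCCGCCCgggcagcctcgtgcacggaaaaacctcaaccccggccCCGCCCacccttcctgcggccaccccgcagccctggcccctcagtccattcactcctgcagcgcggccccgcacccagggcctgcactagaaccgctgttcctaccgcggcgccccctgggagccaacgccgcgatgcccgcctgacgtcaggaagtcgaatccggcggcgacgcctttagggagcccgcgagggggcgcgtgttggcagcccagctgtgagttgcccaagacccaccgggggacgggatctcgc
ELOVL5: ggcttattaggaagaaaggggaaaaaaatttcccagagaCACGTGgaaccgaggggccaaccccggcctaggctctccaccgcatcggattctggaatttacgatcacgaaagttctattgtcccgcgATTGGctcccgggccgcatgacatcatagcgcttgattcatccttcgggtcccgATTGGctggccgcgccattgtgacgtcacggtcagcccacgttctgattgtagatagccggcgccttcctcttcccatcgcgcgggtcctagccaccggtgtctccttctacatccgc

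The windows of SCD and FADS1 both held GC boxes, and of these 2 only that of SCD held an NF-Y box. Whether the motifs bear on the differences was not tested. SCD, with a difference of -0.23, held 2 NF-Y boxes, the nearer at positions -186 to -182 from the start, and 2 GC boxes. FADS1, also at -0.23, held 2 GC boxes and no match to the NF-Y box. The printed ACSS2 window held 3 GC boxes, and its other window held 1 GC box and 1 NF-Y box. ELOVL5 held 2 NF-Y boxes and 1 E-box, with no GC box. ACLY, in 2 overlapping windows, held 2 NF-Y boxes and 4 GC boxes in each, and ACACA, in 3 windows, held a GC box in 2 and an NF-Y box in 2. No window of these 6 genes held the sterol element's letters, which says only that these letters are not in these windows. Over all 35116 windows of the table, 1.13% held the sterol element, 34.6% the NF-Y box, 45.0% the GC box and 7.26% the E-box. FASN and DGAT2 are named only.

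**Figure D2:**
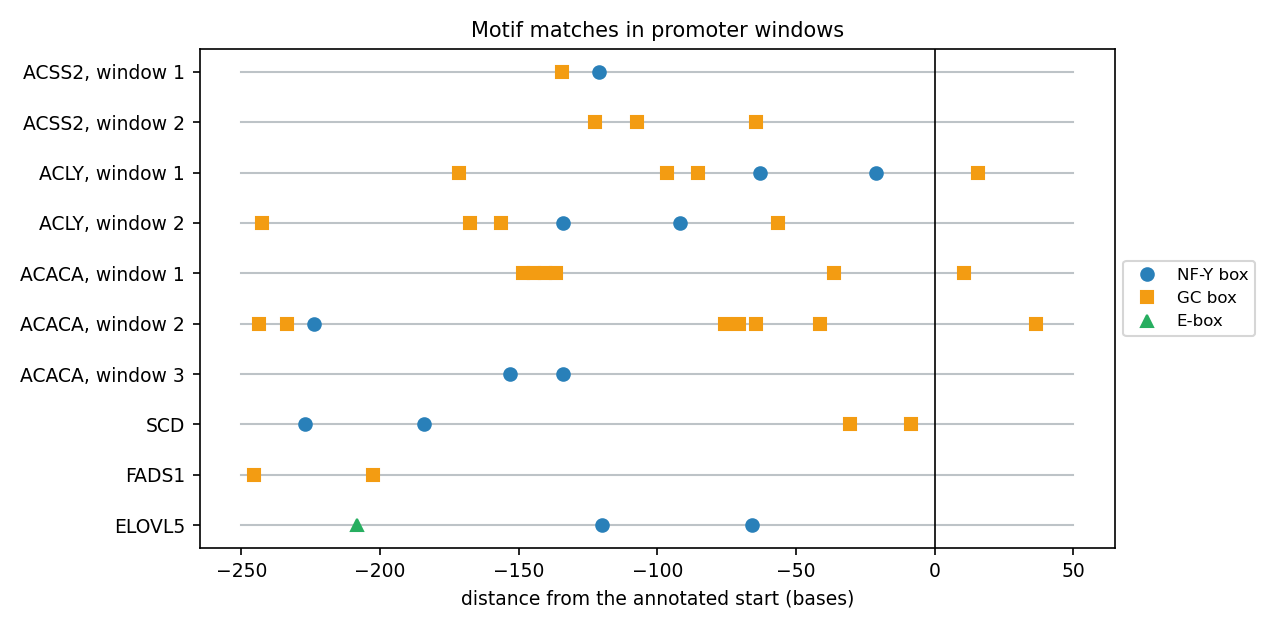
Motif matches in the 10 promoter windows of 6 genes, by distance in bases from the annotated transcription start (vertical line), on either strand. NF-Y boxes (circles) and GC boxes (squares) occur in windows of genes that separated and of genes that did not, and the E-box (triangle) only in that of ELOVL5; no window has a sterol regulatory element.

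At the supply of acetyl-CoA, ACSS2, the cytosolic and nuclear acetyl-CoA synthetase, gave the largest difference of the 8 genes. It measured 7.38 and 7.34 on the rGAL1 arrays, against 7.70 and 7.90 on the Ctrl arrays. The rGAL1 arrays were both low and close together, the Ctrl arrays were both high, and the nearest arrays of the 2 groups were 0.32 apart. The means were 7.36 ± 0.027 with rGAL1 and 7.80 ± 0.14 in Ctrl (SD, n = 2), a difference of -0.44 (SE 0.12) or a 1.35-fold lower level. It was -0.42 without rGAL1 2, and -0.27 with that array counted as a control.

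ACLY, ATP citrate lyase, which supplies acetyl-CoA from mitochondrial citrate, measured 10.93 and 10.91 with rGAL1, against 11.09 and 11.12 in Ctrl. Arrays of a group lay within 0.030 of each other, and the groups were 0.15 apart at their nearest. The difference was -0.18 (SE 0.098), a 1.13-fold lower level; it was -0.17 without rGAL1 2 and -0.10 with that array counted as a control. Both supply genes had lower means; whether their differences were unequal was not tested.

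At carboxylation, ACACA, the cytosolic acetyl-CoA carboxylase that commits acetyl-CoA to fatty acids, measured 8.61 and 8.60 with rGAL1, against 8.61 and 8.71 in Ctrl. Ctrl 2 stood above the other arrays, which were nearly level. The difference of -0.055 (SE 0.10) rested on that array, being -0.0029 without Ctrl 2 and -0.11 without Ctrl 1. Without rGAL1 2 it was -0.050, and with that array counted as a control -0.030.

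At synthesis, FASN, the multifunctional fatty acid synthase, measured 10.06 and 9.95 with rGAL1, against 10.18 and 10.29 in Ctrl. Both rGAL1 arrays were low, with a gap of 0.12 to the nearer Ctrl array that was about as wide as the distance between arrays of a group (0.10 with rGAL1 and 0.11 in Ctrl). The difference was -0.23 (SE 0.11), a 1.17-fold lower level. It was -0.18 without rGAL1 2, and -0.084 with that array counted as a control.

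At desaturation, SCD, the stearoyl-CoA desaturase that makes oleate, measured 11.27 and 11.22 with rGAL1, against 11.49 and 11.45 in Ctrl. The groups lay 0.18 apart at their nearest, with arrays of a group within 0.048 of each other. The difference was -0.23 (SE 0.099), a 1.17-fold lower level; it was -0.20 without rGAL1 2, and -0.12 with that array counted as a control. The second, dimmer probe set of SCD, which the choice of probe set left out, measured 7.33 and 7.43 with rGAL1, against 7.75 and 7.72 in Ctrl. It was separated the same way, by -0.36 (SE 0.10).

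FADS1, the delta-5 desaturase of polyunsaturated fatty acids, measured 8.18 and 8.34 with rGAL1, against 8.42 and 8.55 in Ctrl. Its groups did not overlap, but the gap of 0.084 was smaller than the distance between arrays of a group, 0.16 with rGAL1 and 0.13 in Ctrl. The difference was -0.23 (SE 0.12), a 1.17-fold lower level, and was -0.15 without rGAL1 1. It was -0.31 without rGAL1 2 and -0.26 with that array counted as a control.

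Of the 8 genes, those of the last 2 steps, ELOVL5 and DGAT2, overlapped between the groups. ELOVL5, an elongase of polyunsaturated fatty acids, measured 7.90 and 7.82 with rGAL1, against 7.85 and 7.80 in Ctrl, all within 0.093 of each other. Its difference of 0.033 (SE 0.10) was -0.0056 without rGAL1 1, 0.072 without rGAL1 2 and 0.073 with rGAL1 2 counted as a control. DGAT2, an acyltransferase of triglyceride synthesis, measured 6.41 and 6.20 with rGAL1, against 6.24 and 6.36 in Ctrl. High and low arrays were found in both groups, and the difference of 0.0063 (SE 0.12) took either sign: -0.096 without rGAL1 1, -0.054 without Ctrl 1, 0.066 without Ctrl 2 and 0.11 without rGAL1 2. Counting rGAL1 2 as a control gave 0.14.

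**Figure D3:**
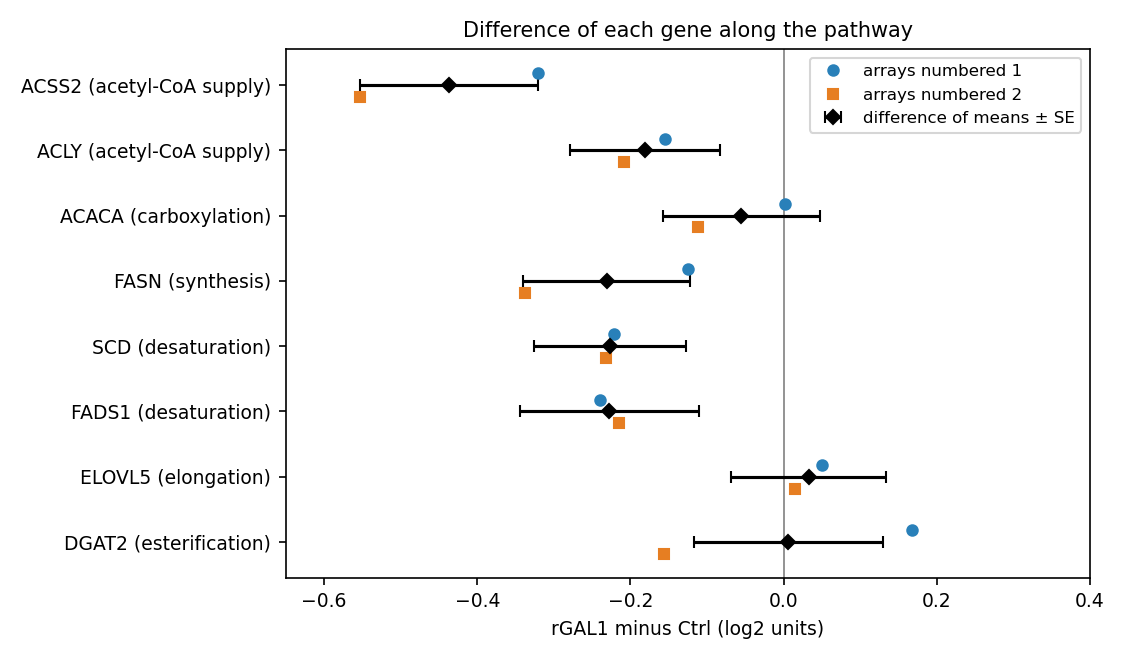
Difference of each gene, rGAL1 minus Ctrl in log2 units, in the order of the pathway from acetyl-CoA supply at the top to esterification at the bottom (diamond, difference of group means ± SE from the fit over all probe sets; circle, between the arrays numbered 1; square, between those numbered 2). ACSS2 lies at -0.44, ACLY, FASN, SCD and FADS1 between -0.23 and -0.18, and ACACA, ELOVL5 and DGAT2 between -0.055 and 0.033.

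Differences between arrays of the same number show how far the values of single arrays spread; the numbers were not taken to pair the arrays. SCD and FADS1 differed by similar amounts between the arrays numbered 1 (-0.22 and -0.24) and those numbered 2 (-0.23 and -0.21). ACSS2 differed by -0.32 between the arrays numbered 1 and by -0.55 between those numbered 2, and FASN by -0.12 and -0.34. DGAT2, with 0.17 and -0.16, and ACACA, with 0.0019 and -0.11, had opposite signs. Among the rGAL1 arrays, number 2 minus number 1 ran from -0.20 for DGAT2 to 0.16 for FADS1, and among the Ctrl arrays from -0.042 for ELOVL5 to 0.20 for ACSS2. The median over the 8 genes was -0.14 for the arrays numbered 1 and -0.21 for those numbered 2.

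**Figure D4:**
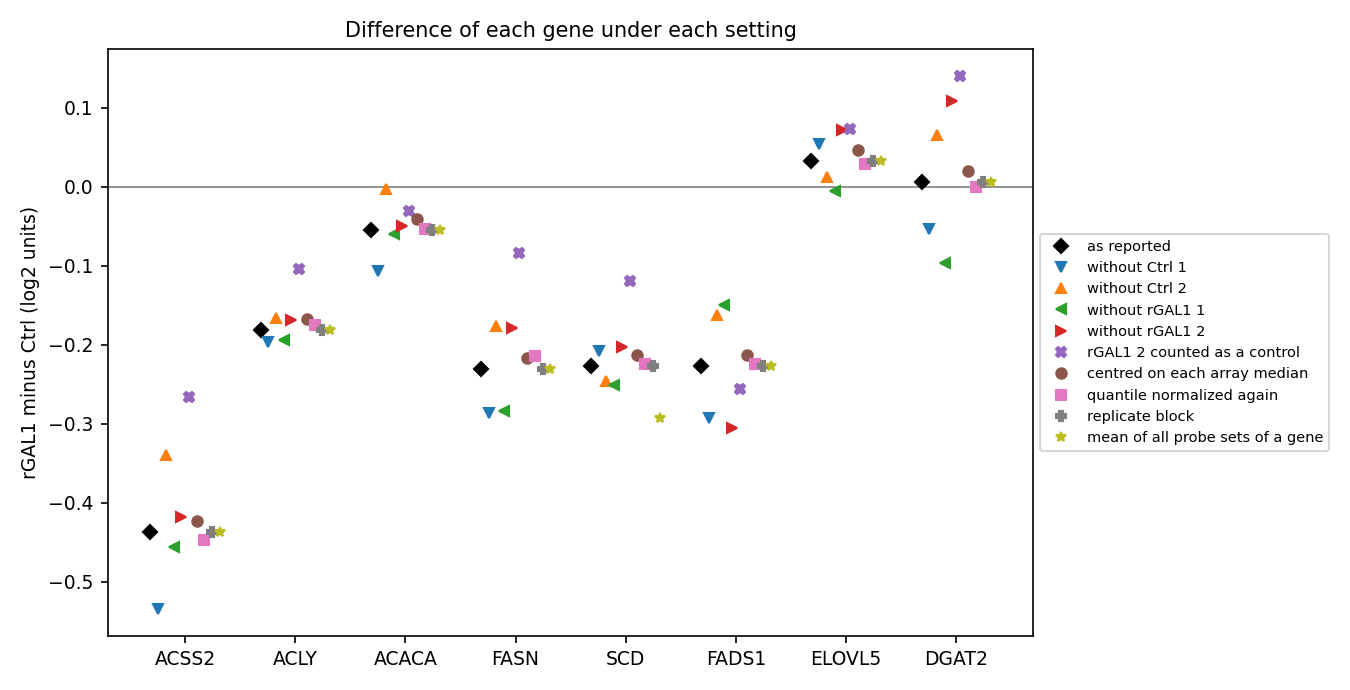
Difference of each gene, rGAL1 minus Ctrl in log2 units, as reported (black diamond) and under 9 other settings: 1 array left out, rGAL1 2 counted as a control, other scalings, the replicate number as a block, and the mean of all probe sets of a gene. ACSS2 ranged from -0.53 to -0.27, the signs of ELOVL5 and DGAT2 turned under some settings, and the other 6 genes stayed below 0 under these 9.

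The other genes of the pathway were taken from lists by step, again only where a probe set carried the symbol alone. Of 77 genes on the 8 lists of supply, carboxylation, synthesis, desaturation, elongation, acyl-CoA activation, esterification and regulation, 50 were measured, 42 of them with a mean above 4.70. None passed in either direction (limma, 0 of 50 at an adjusted p under 0.05). At an unadjusted p under 0.05 there were 2 lower, against 1.57% of named genes, and 1 higher, against 1.42%. With rGAL1, 25 of the 50 had lower means and 25 higher, and the median difference was -0.0032, against 0.0056 over all named genes. The rGAL1 pair lay below the Ctrl pair in 13 of the 50 (17.0% of named genes) and above it in 8 (20.2%). The genes of these lists that are named below showed no difference that passed the test.

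Among close relatives of the 8, the mitochondrial acetyl-CoA synthetase ACSS1, the mitochondrial-surface carboxylase ACACB and the second stearoyl-CoA desaturase SCD5 overlapped between the groups. ACSS1 differed by 0.056 (SE 0.11), and by -0.0029 without rGAL1 2. ACACB differed by 0.061 (SE 0.16), with -0.13 without Ctrl 2, 0.25 without Ctrl 1 and 0.091 without rGAL1 2. SCD5 differed by 0.075 (SE 0.11), with 0.014 without rGAL1 2 and -0.031 with that array counted as a control. The signs of these 3 thus turned between settings. FADS2, the delta-6 desaturase that acts ahead of FADS1, measured 7.92 and 7.72 with rGAL1, against 8.01 and 7.98 in Ctrl. Its groups did not overlap, but the difference of -0.17 (SE 0.12) was -0.074 without rGAL1 2 and 0.018 with that array counted as a control. ELOVL6, which elongates palmitate, overlapped, and its difference of -0.089 (SE 0.11) was -0.0069 without rGAL1 2 and 0.050 with it counted as a control. DGAT1, the other enzyme of the final acylation, measured 8.09 and 8.10 with rGAL1, against 8.18 and 8.27 in Ctrl. The rGAL1 arrays were the lower ones, by -0.13 (SE 0.10), with -0.14 without rGAL1 2 and -0.086 without Ctrl 2. SREBF1, which encodes SREBP1, measured 7.29 and 7.27 with rGAL1, against 7.39 and 7.43 in Ctrl. It was likewise separated, by -0.14 (SE 0.098), with -0.13 without rGAL1 2 and -0.079 with that array counted as a control.

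Supply genes on the mitochondrial side pointed both ways. Citrate synthase, CS, measured 8.89 and 8.84 with rGAL1, against 8.73 and 8.66 in Ctrl, a difference of 0.17 (SE 0.10) that was 0.20 without rGAL1 2. PDHB, a subunit of pyruvate dehydrogenase, measured 7.14 and 7.04 with rGAL1, against 7.28 and 7.29 in Ctrl, a difference of -0.19 (SE 0.10) that was -0.14 without rGAL1 2 and -0.060 with it counted as a control. Its partner PDHA1 differed by -0.047, with -0.044 without rGAL1 2, -0.074 without Ctrl 1 and -0.021 without Ctrl 2. Counting rGAL1 2 as a control gave -0.027. Of the 8 measured supply genes, 6 had lower means, against 48.3% of named genes, with a median of -0.034.

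The synthesis list held the enzymes around FASN and of the mitochondrial pathway. None of its 4 measured genes had a lower mean (median 0.13), against 48.3% of named genes. The gene of these 4 not named below overlapped between the groups, and its difference of 0.031 was -0.071 without Ctrl 2. MECR, the mitochondrial enoyl reductase, measured 6.22 and 6.10 with rGAL1, against 5.77 and 6.03 in Ctrl, a difference of 0.26 (SE 0.13). Ctrl 1 was the low array: the difference was 0.13 without it, 0.39 without Ctrl 2 and 0.32 without rGAL1 2. AASDHPPT, which attaches the prosthetic group to fatty acid synthase, differed by 0.14 (SE 0.099), and by 0.18 without rGAL1 2. HSD17B8, of mitochondrial synthesis, differed by 0.11 (SE 0.097), with the same value without rGAL1 2. It had 6 probe sets, and the one used has the same values as another probe set on the arrays. On the carboxylation list MLYCD, which decarboxylates malonyl-CoA and so opposes ACACA, differed by -0.11 (SE 0.098), and by -0.10 without rGAL1 2. Counting that array as a control gave -0.068.

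Among the other steps the largest difference was that of GPAT3, a glycerol-3-phosphate acyltransferase at the entry to triglyceride synthesis. It measured 6.51 and 6.47 with rGAL1, against 5.99 and 6.06 in Ctrl. Both rGAL1 arrays were high and the groups did not overlap. The difference was 0.46 (SE 0.10, limma unadjusted p = 0.00681, adjusted p = 0.919). It lay between 0.42 and 0.49 when any array was left out, with 0.48 without rGAL1 2. Counting that array as a control gave 0.33. The next 5 genes did not overlap between the groups either, and the differences of 4 of them moved by over 1.5 times with a single array. MOGAT2, a monoacylglycerol acyltransferase, differed by -0.17 (SE 0.11), with -0.10 without Ctrl 1 and -0.21 without rGAL1 2. The acyl-CoA synthetase ACSL5 differed by 0.11 (SE 0.11), with 0.048 without rGAL1 1 and 0.18 without rGAL1 2. ELOVL1, an elongase of long saturated chains, differed by 0.14 (SE 0.10), with 0.080 without Ctrl 2 and 0.12 without rGAL1 2. Counting rGAL1 2 as a control gave 0.065. The fourth was CYB5A, the cytochrome b5 that passes electrons to desaturases, whose difference of 0.14 (SE 0.12) was 0.032 without Ctrl 1, 0.24 without Ctrl 2 and 0.14 without rGAL1 2. HSD17B12, the ketoacyl reductase of elongation, measured 5.18 and 5.19 with rGAL1, against 5.39 on each Ctrl array. Its difference of -0.20 (SE 0.097) was -0.21 without rGAL1 2. USF1, a factor that binds E-boxes of lipogenic genes, was separated by -0.19 (SE 0.10), with -0.15 without rGAL1 2 and -0.075 with it counted as a control. The 2 lower genes at an unadjusted p under 0.05, named after their values were seen, were ELOVL4 (-0.33, and -0.37 without rGAL1 2) and MOGAT1 (-0.39, and -0.41 without it), both with means below 4.70.

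**Figure D5:**
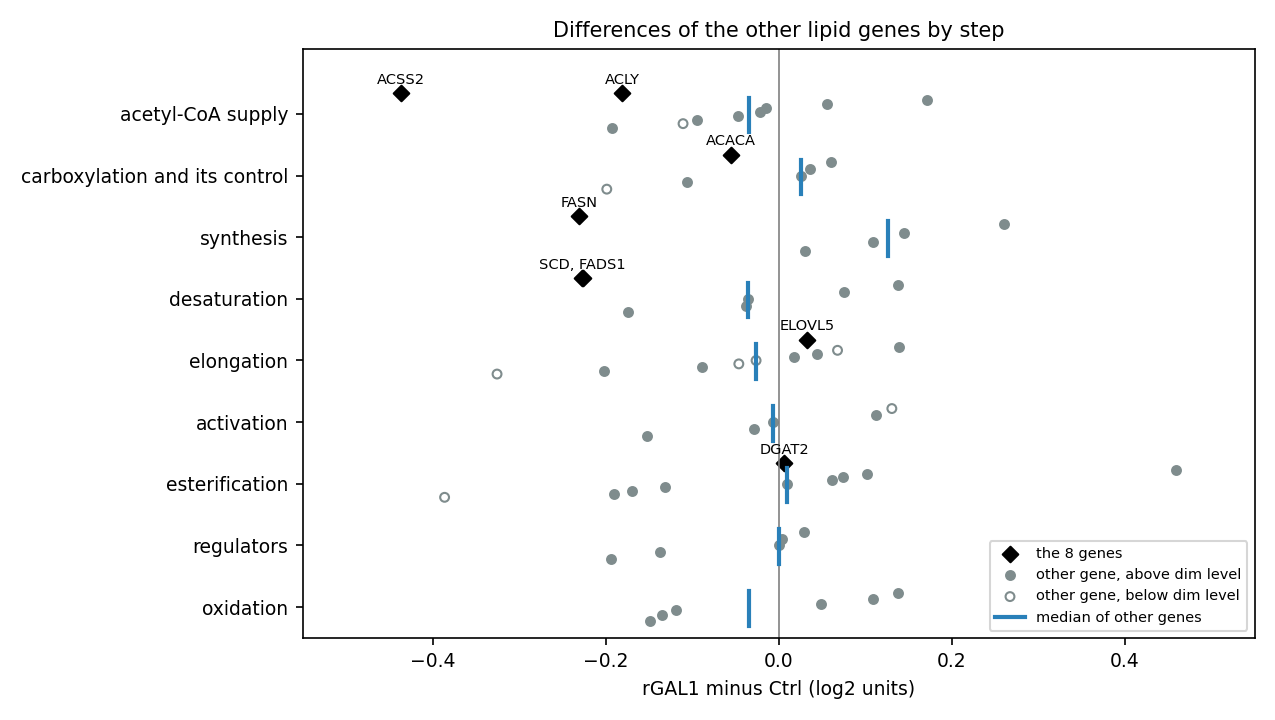
Difference, rGAL1 minus Ctrl in log2 units, of the other lipid genes by list (dots; open where the mean was below 4.70; blue bar, median of the list) with the 8 genes of the account as black diamonds at their steps. The list medians lie between -0.035 and 0.13, and the dot farthest right is GPAT3 at 0.46.

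The named genes whose 4-array profile was most like that of a given enzyme were found by the smallest Euclidean distance between log2 values centred on their mean, among 10683 other genes above 4.70. For ACSS2 these were GNE, a sialic acid synthesis enzyme (distance 0.035), INSIG1, a brake on SREBP release (0.045), and the antisense transcript NPPA-AS1 (0.052). For FASN they were AKAP3 (0.0091), AKAIN1 (0.013) and AKT1S1 (0.013), and for SCD they were COMP (0.020), COQ8B (0.022) and VGLL3 (0.023). A profile here has only 4 values, and how many genes lie about as close was not counted. The distances are given as a description only.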

How the data were processed

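Transcripts of RWP-1 cells were measured on 4 single-channel arrays. The authors' deposited values are log2 expression per probe set, made with RMA per the submitters' processing notes, which also name limma; their versions were not given in the sources used here. Differences of dim probe sets are compressed by RMA, and the table has no detection calls. The platform annotation gave 1 symbol to 16098 of 53617 probe sets. Groups came from the sample titles. From the deposited log2 values, all probe sets were compared, rGAL1 minus Ctrl, in R 4.3.3 with limma 3.58.1 (eBayes after lmFit, no block, two-sided, Benjamini-Hochberg over 53617 probe sets, threshold 0.05). The procedure was tested on simulated data for the mean size of planted changes. How many planted changes were called is not reported here. With 2 arrays a group, an exact permutation test of a single value cannot go below p = 0.333, and precision is limited by the number of arrays; p-values reflect array-to-array spread alone, possibly technical. The 8 genes and the lists were chosen with earlier results of these data known. List genes named are the close relatives of the 8, SREBF1, and up to 3 per list with separated groups, a mean above the median level and the largest differences. Alternatives left out arrays, relabelled rGAL1 2, rescaled the arrays, added the replicate block, averaged probe sets, changed the variance prior or limited the probe sets tested.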

Additional observations from a re-analysis of the deposited data

How the results depend on the processing

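The median difference of the 8 genes, -0.20, lay between -0.20 and -0.16 when any 1 array was left out. It was -0.094 with rGAL1 2 counted as a control, which sets rGAL1 1 alone against all the other arrays. Each of these 5 fits leaves a group with a lone array, which is assumed to vary like the others. Counting rGAL1 2 as a control shrank the differences of ACSS2, ACLY, ACACA, FASN and SCD. It enlarged those of FADS1 (-0.26), ELOVL5 (0.073) and DGAT2 (0.14). The replicate block left the median at -0.20, with 0 probe sets and 0 list genes called. The numbers were not taken to pair the arrays. Over all probe sets, same-numbered arrays did not deviate together from their groups (r = -0.048). With 2 arrays a group, this cannot show whether the arrays were paired. In the 12 other fits with limma, as in that of the report, 0 probe sets passed an adjusted p under 0.05. Of the 56 measured list genes, 0 passed in each of the 13 other fits, and 1 to 4 had an unadjusted p under 0.05, against 3 in the report's fit. The sign turned in 1 of 9 settings for ELOVL5 and in 3 of 9 for DGAT2, where quantile normalization gave -0.00055. For ACSS2, ACLY, FASN and SCD, counting rGAL1 2 as a control was the 1 setting of 9 that moved the difference by over 1.5 times. Averaging both probe sets of SCD gave -0.29.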

Other observations

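Genes of fatty acid oxidation, the opposing route, were also listed, with the same limit to probe sets with a single symbol. Of 17 such genes, 6 were measured, 3 with lower and 3 with higher means with rGAL1, with a median difference of -0.035 log2 units, and 0 passed (limma, 0 at an unadjusted p under 0.05 as well). CPT1A, which admits long-chain fatty acids to mitochondria, measured 8.63 and 8.72 with rGAL1, against 8.46 and 8.62 in Ctrl. Its difference of 0.14 (SE 0.11) was 0.059 without Ctrl 1, 0.22 without Ctrl 2 and 0.093 without rGAL1 2. With rGAL1 2 counted as a control, CPT1A differed by 0.032. CPT2, its partner at the inner membrane, measured 7.64 and 7.54 with rGAL1, against 7.70 and 7.72 in Ctrl, a difference of -0.12 (SE 0.10) that was -0.071 without rGAL1 2 and -0.016 with that array counted as a control. PPARA, a receptor that drives oxidation genes, measured 5.07 and 5.10 with rGAL1, against 5.24 on each Ctrl array, a difference of -0.15 (SE 0.097) that was -0.17 without rGAL1 2.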
